A study of Homo sapiens with 9 samples.

Results

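The antisense long noncoding RNA genes described here are those whose symbol ends in -AS and a number and that held at least 20 raw counts in each of 9 RNA sequencing libraries. Of 1166 genes with such a symbol in the count files, 320 passed the filter on low counts that was applied to all genes, and 156 of those held the floor of 20 counts everywhere and are called members below. The members were selected on their measured level in every library, so their level is a description, and a gene that dropped under 20 counts in any group is not among them. The cells were IMR90, a line of human fetal lung fibroblasts with a limited number of divisions, grown at 2% oxygen and infected at population doubling 30. All groups received 2 lentiviral infections 24 hours apart and puromycin at 3 ug/mL for 7 days. The control group (libraries a, b and c) carried the pLKO.1 vector alone, named as empty in the sample labels and as a GFP vector in the treatment protocol. Cells labelled shRRM2 expressed a short hairpin that targets RRM2, a subunit of the enzyme ribonucleotide reductase, and the shRRM2/shp16 group carried this hairpin together with one against p16, the inhibitor encoded by CDKN2A. No group received the p16 hairpin alone, and a single hairpin per target is described. The labels do not say whether the 3 libraries of a group came from separate infections, so the p-values measure the spread between these libraries, which may be technical.

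An antisense gene is transcribed from the strand opposite to another gene, usually a protein-coding one, whose symbol it borrows. The pair can share a start region and point away from each other (head-to-head, or divergent), run into each other at their ends (tail-to-tail), or lie one inside the other. Divergent transcripts often begin at CpG-rich promoters that fire in both directions, and some antisense RNAs are known to act on the gene across from them while others act elsewhere or have no known function. RRM2 depletion lowers the supply of deoxyribonucleotides and is used to bring fibroblasts into senescence, a lasting exit from the cell cycle in which p16 is a main inhibitor.

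The promoters of 4 members are shown because the pairs below are grouped by the position of the antisense gene relative to its sense gene. In GENCODE release 29, GAS6-AS2 and USP46-AS1 start 101 and 71 bases from the annotated start of the gene they are named for. TMPO-AS1 starts 910 bases from it inside the same gene, and DLGAP1-AS2 starts 852335 bases away. The windows below follow RefSeq starts, which can differ from these. The 2 starts differ for TMPO-AS1, and the whole DLGAP1-AS2 window lies downstream of the GENCODE start. The sequences are RefSeq promoter windows of GRCh38.p14 (250 bases before to 50 after the RefSeq start), each limited to its longest stretch outside exons of protein-coding genes, and are written 5′ to 3′ on the strand of the antisense gene. Capitals mark matches on either strand to GGGCGG (the GC box), TGANTCA (the AP-1 element) or CACGTG (the E-box).
GAS6-AS2, chr13:113864068-113864226, plus strand: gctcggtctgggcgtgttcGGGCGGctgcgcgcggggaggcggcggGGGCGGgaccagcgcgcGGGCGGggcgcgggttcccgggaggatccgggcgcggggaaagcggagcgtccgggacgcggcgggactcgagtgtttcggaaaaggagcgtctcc
USP46-AS1, chr4:52659336-52659455, plus strand: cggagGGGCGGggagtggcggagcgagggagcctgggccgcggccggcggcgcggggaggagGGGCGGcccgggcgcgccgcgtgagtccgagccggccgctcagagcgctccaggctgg
TMPO-AS1, chr12:98516177-98516476, minus strand: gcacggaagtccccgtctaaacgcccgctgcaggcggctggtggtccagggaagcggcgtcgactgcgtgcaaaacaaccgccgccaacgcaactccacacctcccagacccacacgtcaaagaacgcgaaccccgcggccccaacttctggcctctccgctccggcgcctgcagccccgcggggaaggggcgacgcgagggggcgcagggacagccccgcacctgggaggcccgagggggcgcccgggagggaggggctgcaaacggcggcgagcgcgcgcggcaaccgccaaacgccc
DLGAP1-AS2, chr18:3603487-3603786, plus strand: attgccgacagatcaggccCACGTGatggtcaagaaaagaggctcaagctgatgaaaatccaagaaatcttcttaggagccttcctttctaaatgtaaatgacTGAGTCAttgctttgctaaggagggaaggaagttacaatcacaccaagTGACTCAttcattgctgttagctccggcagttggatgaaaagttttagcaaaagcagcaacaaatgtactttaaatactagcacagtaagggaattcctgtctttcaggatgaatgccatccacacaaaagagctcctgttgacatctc
The first 2 of these stretches were 78% and 84.2% G and C and held 3 and 2 GC boxes. The TMPO-AS1 window was 73.3% G and C with 39 CpG and no match to any of the motifs. The DLGAP1-AS2 window was 42% G and C with 3 CpG, and it held 2 AP-1 elements and 1 E-box. A match is a description of letters and not a bound site.

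RRM2 was at 485 ± 5.23 CPM (counts scaled to the size of the library, SD, n = 3) in control, 62.1 ± 1.86 in shRRM2 and 177 ± 3.00 in shRRM2/shp16, so the target was lower in both hairpin groups and higher in the double group than with shRRM2 alone. CDKN2A was at 6.02 ± 0.113, 6.50 ± 0.464 and 4.28 ± 0.321 CPM, in the same order, which is 1.52-fold lower in the double group than in shRRM2 (adjusted p = 7.0e-05). Libraries held 15770895 to 24873291 counts in genes. All 8 fibroblast markers examined were detected, with summed levels of 37233 to 38398 CPM in control, 40539 to 41502 in shRRM2 and 28549 to 29204 in shRRM2/shp16, against at most 2.15 CPM for 3 epithelial, 2.48 for 3 endothelial and 0.127 for 3 leukocyte markers. Of the uniquely aligned reads, the share that fell outside every annotated gene was 17.6% to 18.9% in control, 27.7% to 28.8% in shRRM2 and 23.5% to 24.4% in shRRM2/shp16, and the part of this in the members' changes was not tested. Of 380 genes that lie wholly inside exons of genes on the opposite strand, 72.4% had reads, against 5.11% of 235 genes wholly inside exons of the same strand and 70.1% of 19274 genes with no overlap. Counting without strand would have left both overlapping classes without reads, so the counts were read as strand-specific. For 73 wholly covered genes across from a gene of at least 100 CPM, the density of reads was a median of 0.396% of that gene's density (quartiles 0.117% and 0.958%), which is a scale for how far reads of a strong gene can appear on the other strand.

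Most members were weakly expressed. Their mean level over the 9 libraries had a median of 5.08 CPM with quartiles of 2.63 and 10.4, against a median of 15.6 CPM for the 16561 genes tested, and the mean spread between libraries of a group was a median of 10.5% of the level, against 6.37% for all tested genes. Members together took 0.160% to 0.168% of raw gene counts in control, 0.179% to 0.185% in shRRM2 and 0.190% to 0.191% in shRRM2/shp16. These raw shares did not overlap between the groups. They leave out the TMM factor used for CPM, which was 0.961 to 0.972 in control and 1.04 in each shRRM2/shp16 library. Scaling by this factor would bring the groups closer and make the hairpin groups overlap, so the separation of the hairpin groups is stated for raw counts only. LRRC75A-AS1, known today as the small nucleolar RNA host gene SNHG29, was the highest at 76.0 RPKM (mapped reads scaled to depth and to gene length, a level per length), followed by FGD5-AS1 at 23.4 and MMP24-AS1 at 14.8 RPKM. The annotation lists 102 members as antisense, 21 as lincRNA and 23 as processed transcripts. It lists LHX4-AS1, MMP24-AS1, NCBP2-AS2 and TOPORS-AS1 as protein-coding, ATE1-AS1, PSMD5-AS1 and TP73-AS1 as unitary and EMC3-AS1 and SVIL-AS1 as unprocessed transcribed pseudogenes, and HNRNPU-AS1 not at all. The lowest members, TSC22D1-AS1, NRSN2-AS1 and ATE1-AS1, reached exactly 20 counts in their lowest library with mean counts of 24.6, 30.6 and 33.1. The nearest genes left out, RBPMS-AS1, PAN3-AS1 and IQCH-AS1, reached 19 with mean counts of 37.3, 31.1 and 28.9.

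The first comparison set the RRM2 hairpin alone against the vector. In shRRM2 against control, 49 members rose and 23 fell, led upward by RNF217-AS1, GAS6-AS2, SLC2A1-AS1, ROR1-AS1 and HHIP-AS1, which were 2.15-fold to 2.54-fold higher, and downward by TMPO-AS1, which was 2.06-fold lower. The call was a Benjamini-Hochberg adjusted p under 0.05 in edgeR's quasi-likelihood test over all tested genes. The 72 members called were 46.2% of the members, under the 60.9% called among all genes. Split by direction, 31.4% of members rose against 29.0% of all genes, and 14.7% fell against 31.8%. A change of at least 2-fold was called for 8 members (5.13%, all genes 10.1%), and the groups did not overlap for 78 members (50%, all genes 63.6%). The median log2 fold change was 0.15, against 0.00 for all genes. The floor of counts in every library leaves out genes that were low in any group. Over the 320 -AS genes that passed the filter, 83 rose and 33 fell with a median of 0.19, and of the 164 among them below the floor 34 rose and 10 fell. Sense partners that could be tested went the other way, with 39 higher and 62 lower of 133. Of the other noncoding lists, LINC genes had 65 higher and 17 lower of 168 (median 0.34), genes named as intronic transcripts (-IT) 18 higher and 0 lower of 39 (median 0.69), and snoRNA host genes (SNHG) 5 higher and 9 lower of 20 (median -0.11). In these bulk samples, fewer cells with a transcript and less of it per cell cannot be told apart.

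**Figure D1:**
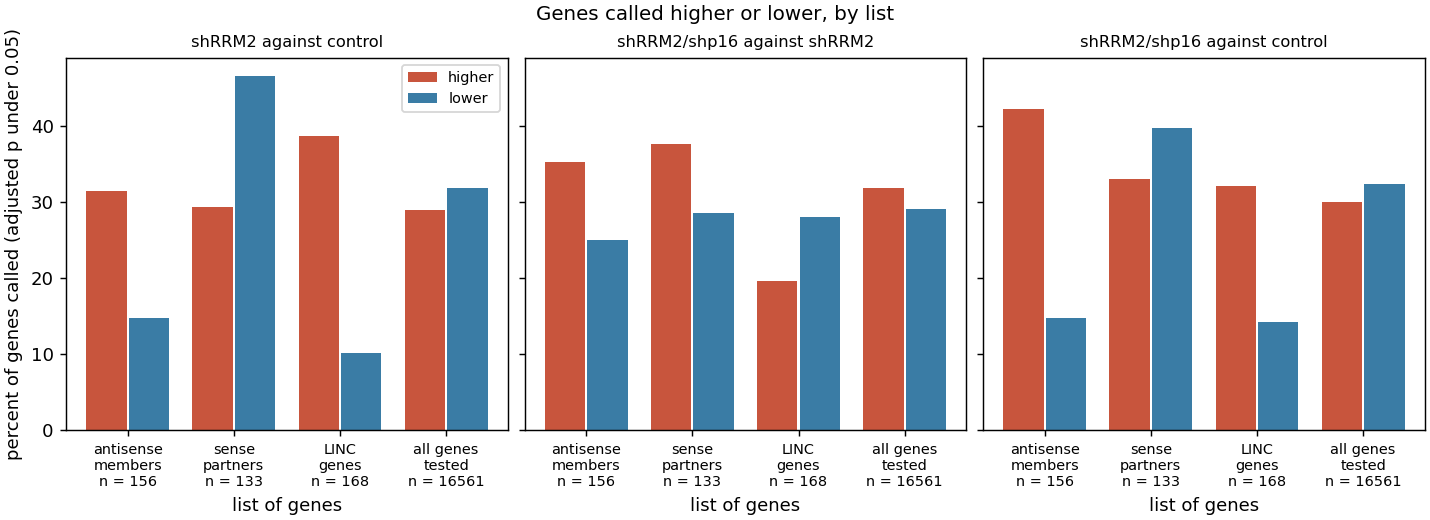
Percent of genes called higher (red) or lower (blue) at an adjusted p under 0.05 in edgeR, on a vertical axis in percent, for the antisense members, their sense partners, LINC genes and all genes tested, with 1 panel per comparison. In shRRM2 against control 31.4% of the members rose and 14.7% fell, while 29.3% of the sense partners rose and 46.6% fell.

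TMPO-AS1 (chr12:98512973-98516422) lies across from TMPO, which encodes lamina-associated polypeptide 2 of the inner nuclear membrane. It was at 8.05, 7.88 and 7.74 CPM in control, 3.87, 3.58 and 4.07 in shRRM2, and 4.38, 3.34 and 4.25 in shRRM2/shp16. Both hairpin groups lay below control with no overlap and overlapped each other, and the log2 fold change in shRRM2 was -1.04 ± 0.13 (SE, adjusted p = 3.3e-09). H1FX-AS1, across from the linker histone gene H1FX, was at 4.32, 4.92 and 3.99 CPM in control, 2.79, 2.48 and 2.07 in shRRM2, and 6.55, 6.17 and 4.19 in shRRM2/shp16. It fell with shRRM2 (log2 fold change -0.85 ± 0.18, adjusted p = 6.5e-05) and stood above it with the second hairpin in every library. Against control the double group was called higher (0.36, adjusted p = 0.0310), a call lost on leaving out control replicate a or c or shRRM2/shp16 replicate a or b (adjusted p = 0.0721 to 0.201). AGAP2-AS1, within the gene of a GTPase-activating protein, was at 14.5 to 15.8 CPM in control, 9.08 to 9.69 in shRRM2 and 7.69 to 9.51 in shRRM2/shp16. DYNLL1-AS1, known today as NRAV, was at 8.28 to 9.14 CPM in control, 5.48 to 6.03 in shRRM2 and 7.71 to 8.44 in shRRM2/shp16. DHRS4-AS1 took the same course, at 9.53 to 11.2, then 6.94 to 7.21, then 9.45 to 10.2 CPM.

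Among the members that rose, RNF217-AS1 (chr6:124909093-124963039), divergent from an E3 ubiquitin ligase gene, was at 1.22, 1.12 and 1.25 CPM in control, 3.24, 3.29 and 2.64 in shRRM2, and 2.64, 3.98 and 4.19 in shRRM2/shp16. All 6 hairpin libraries lay above control, and the log2 fold change with shRRM2 was 1.35 ± 0.22 (adjusted p = 1.3e-06). SLC2A1-AS1, divergent from the glucose transporter gene SLC2A1, was at 1.22, 1.57 and 1.43 CPM in control and 2.29, 2.54 and 4.36 in shRRM2, with the third shRRM2 library well above the others (log2 fold change 1.15 ± 0.23, adjusted p = 3.8e-05). SLC2A1 itself rose from 308 ± 2.79 to 548 ± 14.2 CPM, and the antisense to sense ratio was not called (limma, adjusted p = 0.443). Over the 9 libraries SLC2A1-AS1 RPKM was 0.861% of SLC2A1 RPKM. That lies between the quartiles of 0.117% and 0.958% given above for reads across from a strong gene. The part of such reads in the SLC2A1-AS1 counts was not tested. ROR1-AS1 starts inside ROR1, a receptor tyrosine kinase-like gene, and was at 1.23 to 1.47 CPM in control and 2.60 to 3.33 in shRRM2. ZNF337-AS1 was at 1.12 to 1.72 CPM in control and 2.58 to 3.75 in shRRM2. CDKN2B-AS1, also known as ANRIL, spans the p15 gene CDKN2B in the same locus as CDKN2A. It was at 2.39, 1.73 and 1.79 CPM in control, 3.30, 3.81 and 3.90 in shRRM2 and 2.48, 1.99 and 3.01 in shRRM2/shp16. The shRRM2 libraries were above all others (log2 fold change 0.87 ± 0.19 against control, adjusted p = 1.1e-04). The lower level with the second hairpin had an adjusted p of 0.00663, which became 0.0672 without shRRM2/shp16 replicate b.

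**Figure D2:**
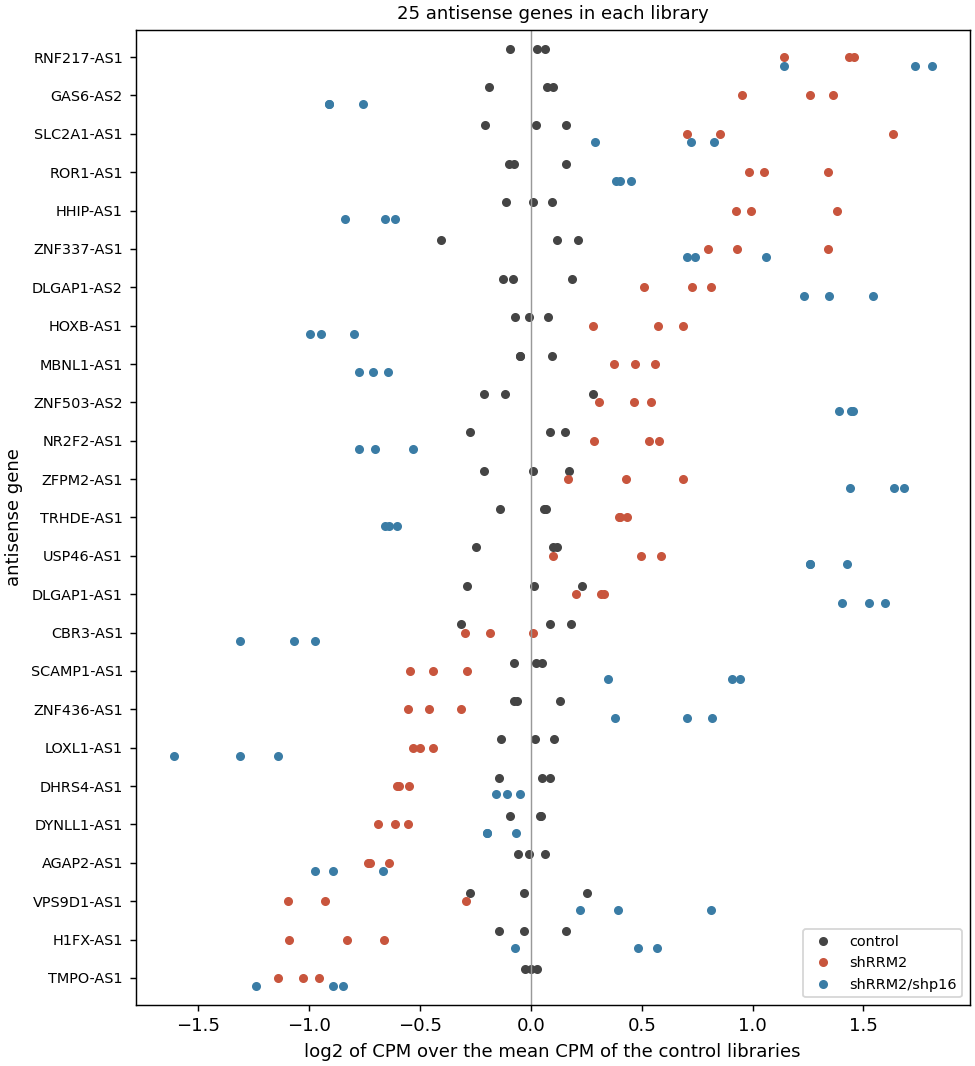
Log2 of the CPM of 25 named members over their mean CPM in control (horizontal axis), 1 point per library, with control in grey, shRRM2 in red and shRRM2/shp16 in blue, ordered by the fold change in shRRM2 against control. GAS6-AS2, HHIP-AS1, HOXB-AS1, MBNL1-AS1, NR2F2-AS1 and TRHDE-AS1 have their red points right of control and their blue points left of it.

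The second comparison set the double hairpin group against shRRM2. RRM2 itself was 2.85-fold higher in the double group, so the p16 hairpin and the weaker loss of RRM2 cannot be told apart. In shRRM2/shp16 against shRRM2, 55 members rose and 39 fell, led downward by GAS6-AS2 (4.15-fold lower) and HHIP-AS1 (3.51-fold lower) and upward by VPS9D1-AS1 and DLGAP1-AS1 (2.35-fold and 2.34-fold higher). The 94 called were 60.3% of the members, beside 61.1% of all genes. They rose in 35.3% against 31.9% of all genes and fell in 25.0% against 29.1%, with 13 members (8.33%, all genes 11.8%) changed at least 2-fold and 100 (64.1%, all genes 64.7%) without overlap. The members' median log2 fold change was 0.09, against 0.01. These shares lie close to those of all genes. Both comparisons use the shRRM2 libraries, so their fold changes are not independent.

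GAS6-AS2 (chr13:113864168-113866833), divergent from the gene of the TAM receptor ligand GAS6, was at 6.91, 5.76 and 7.03 CPM in control, 16.9, 12.7 and 15.7 in shRRM2, and 3.49, 3.88 and 3.49 in shRRM2/shp16. The 3 groups did not overlap, with log2 fold changes of 1.19 ± 0.11 (adjusted p = 3.2e-13) for shRRM2 against control and -2.05 ± 0.12 (adjusted p = 2.9e-19) for the double group against shRRM2. HHIP-AS1 (chr4:144642922-144661357), divergent from the gene of the hedgehog-interacting protein, an antagonist of hedgehog ligands, was at 2.68, 2.52 and 2.32 CPM, then 4.76, 6.52 and 4.99, then 1.64, 1.59 and 1.40. It had the same order of groups without overlap and differed between the hairpin groups by -1.81 ± 0.18 in log2 (adjusted p = 5.7e-12). HOXB-AS1, in the cluster of HOXB homeobox genes and without a single sense partner by name, was at 4.29 to 4.75, 5.48 to 7.24 and 2.26 to 2.59 CPM. MBNL1-AS1, across from a splicing regulator gene, was at 32.4 to 35.9, 43.5 to 49.5 and 19.6 to 21.5 CPM. TRHDE-AS1 was at 22.7 to 26.2, 32.9 to 33.7 and 15.8 to 16.4 CPM. NR2F2-AS1, divergent from the nuclear receptor gene NR2F2, was at 2.46 to 3.31, 3.63 to 4.44 and 1.74 to 2.06 CPM. Its rise with shRRM2 had an adjusted p of 0.0145, which became 0.0891 without control replicate b and 0.0538 without shRRM2 replicate a.

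In all, 9 members rose with shRRM2 and were then below control in the double group, which is 5.77% of the members beside 5.37% of all genes. Besides the 6 just given these were ADIRF-AS1, HOXB-AS3 and MAGI2-AS3. MAGI2-AS3, among the 5 members of highest CPM, was at 49.8, 63.4 and 60.3 CPM in control, 76.0, 68.8 and 73.0 in shRRM2 and 43.8, 45.7 and 44.3 in shRRM2/shp16. The commonest called pattern was another one. In 32 members (20.5%, all genes 8.94%) shRRM2 was not called against control while the double group was above both, and 33 members (21.2%, all genes 17.3%) were called in no comparison, among them TP73-AS1 at 26.6 to 30.3 CPM in all libraries and ZEB1-AS1 at 4.71 to 7.60. Control replicate b held the highest ZEB1-AS1 value, and without it shRRM2 against control had an adjusted p of 0.00749. LOXL1-AS1 was the one member called lower in all 3 comparisons (all genes 6.18%). FGD5-AS1 alone fell with shRRM2, rose from it in the double group and stayed below control, a pattern of 5.46% of all genes.

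Of the members that rose with the second hairpin, DLGAP1-AS1 was at 4.57, 3.19 and 3.93 CPM in control, 4.89, 4.85 and 4.48 in shRRM2, and 11.2, 10.3 and 11.8 in shRRM2/shp16. The double group was clear of both others (log2 fold change 1.23 ± 0.12 against shRRM2, adjusted p = 2.9e-12). Its neighbour DLGAP1-AS2 rose at each step, with 3.23 to 4.02 CPM in control, 5.02 to 6.20 in shRRM2 and 8.28 to 10.3 in shRRM2/shp16. VPS9D1-AS1 was at 2.89, 3.52 and 2.44 CPM, then 2.41, 1.38 and 1.55, then 5.18, 3.44 and 3.87, so that shRRM2 lay lowest (log2 fold change 1.23 ± 0.20 for the double group against shRRM2, adjusted p = 1.2e-06). SCAMP1-AS1 was at 1.33 to 1.59 CPM in shRRM2 and 2.47 to 3.73 in shRRM2/shp16, and ZNF436-AS1 at 1.46 to 1.72 and 2.79 to 3.78. ZFPM2-AS1, whose partner encodes a cofactor of GATA factors, was at 1.96 to 2.81 and 4.73 to 5.60 CPM. EPB41L4A-AS1, a snoRNA host gene, was at 10.1 to 11.6 CPM in shRRM2 and 16.2 to 18.2 in shRRM2/shp16 (log2 fold change 0.71 ± 0.09, adjusted p = 6.0e-09).

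Against control, the double group had 66 members higher and 23 lower, 89 or 57.1% in all beside 62.4% of all genes. Upward the share was 42.3% against 30.0% of all genes, and downward 14.7% against 32.4%. A 2-fold change was called for 12 members (7.69%, all genes 12.6%), 96 members (61.5%, all genes 66.2%) did not overlap, and the median log2 fold change was 0.25 against 0.01. Over the 320 filtered -AS genes, 106 rose and 34 fell. RNF217-AS1 and ZFPM2-AS1 stood highest, at 3.01-fold and 3.00-fold above control, followed by DLGAP1-AS1 (2.80-fold), ZNF503-AS2 (2.71-fold), DLGAP1-AS2 (2.62-fold) and USP46-AS1 (2.47-fold). LOXL1-AS1 (chr15:73908071-73928248), across from a lysyl oxidase-like gene of elastic fibre assembly, was at 17.8, 19.8 and 21.0 CPM in control, 13.5, 13.8 and 14.4 in shRRM2, and 6.39, 7.87 and 8.87 in shRRM2/shp16. Each group lay below the one before without overlap, to a log2 fold change of -1.33 ± 0.09 (adjusted p = 1.3e-16) against control. CBR3-AS1 was at 2.26 to 3.19 CPM in control and 1.13 to 1.43 in the double group, where it was 2.12-fold lower.

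The 5 members of highest CPM changed by at most 1.62-fold in any comparison. LRRC75A-AS1 was at 274 to 289 CPM in control, 268 to 286 in shRRM2 and 295 to 302 in shRRM2/shp16, a log2 difference of 0.11 ± 0.03 between the hairpin groups (adjusted p = 0.00200). FGD5-AS1 was at 131 to 138, 104 to 108 and 116 to 119 CPM, with shRRM2 lowest (log2 fold change -0.34 ± 0.04 against control, adjusted p = 5.4e-11). OIP5-AS1, the RNA also called cyrano, was at 70.9 to 73.8 CPM in control and 87.6 to 96.9 in the 6 hairpin libraries, which did not overlap control (log2 fold change 0.30 ± 0.04 with shRRM2, adjusted p = 2.4e-08). MMP24-AS1 was at 68.9 to 75.0, 99.0 to 105 and 70.7 to 72.6 CPM, so that the shRRM2 group alone stood apart.

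Each member was then set beside its sense partner, the gene of the same symbol without the suffix. A partner was found in the count files for 152 members, and 137 had one that passed the filter. HOXA-AS2, HOXB-AS1, HOXB-AS3 and RPARP-AS1 had no single partner by name. For 15 members the partner itself was all but silent, with at most 20 counts in any library, among them FGD5 with 5 to 11 counts, TP73 with 0 to 6 and FLG listed at 0 in every library. In 136 pairs with both lengths known, antisense RPKM was a median of 17.9% of sense RPKM, and it exceeded the sense level in 22 pairs. By position, 27 members were head-to-head and apart from their partner (annotated starts 1 to 418 bases apart). Another 63 were head-to-head and overlapping (annotated starts 25 to 21038 bases apart, median 773). A further 32 were tail-to-tail, 15 contained the sense gene, and 14 lay inside it.

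The fold changes of members and partners were positively correlated over head-to-head pairs and not over tail-to-tail pairs, a difference between classes that was not tested. Over 87 tested head-to-head pairs the log2 fold changes of the 2 genes had Pearson correlations of 0.46 with shRRM2, 0.64 between the hairpin groups and 0.53 for the double group against control. Without the 2 pairs whose partner changed most they were 0.34, 0.53 and 0.49. The rank (Spearman) correlations over all 87 pairs were lower than the Pearson ones, at 0.30, 0.47 and 0.39. Over 27 tail-to-tail pairs the values were -0.11, -0.14 and -0.43, and 0.05, -0.25 and -0.52 without the 2 tail-to-tail pairs whose partner changed most. Positive values were not particular to head-to-head pairs. Over 10 pairs in which the member contained the sense gene the Pearson values were 0.52, 0.39 and 0.76. Over 12 pairs with the member inside the sense gene they were -0.48, 0.55 and 0.64. Other opposite-strand pairs gave 0.24, 0.34 and 0.27 when head-to-head and overlapping (1086 pairs) and 0.12, -0.01 and 0.03 when tail-to-tail (951 pairs). These other pairs include pairs of protein-coding genes, and the floor of 20 counts was not applied to them. Of the 87 head-to-head member pairs, 27 do not overlap, and the 60 that do gave 0.48, 0.67 and 0.56. All these correlations are descriptions across genes that share libraries, and some members share a partner, so no p is given. Where both genes of a head-to-head pair were called, they moved the same way in 15 of 30 pairs with shRRM2, in 29 of 36 between the hairpin groups and in 25 of 40 for the double group against control. These are 50%, 80.6% and 62.5%, beside 66.5%, 71.1% and 65.1% of other head-to-head overlapping pairs and 61.4%, 61.9% and 60.1% of all pairs. With shRRM2 the members' share was thus below both. Where both genes of a tail-to-tail pair were called, they did so in 4 of 11, 5 of 10 and 4 of 12 pairs, beside 57.6%, 52.6% and 55.2% of other tail-to-tail pairs.

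**Figure D3:**
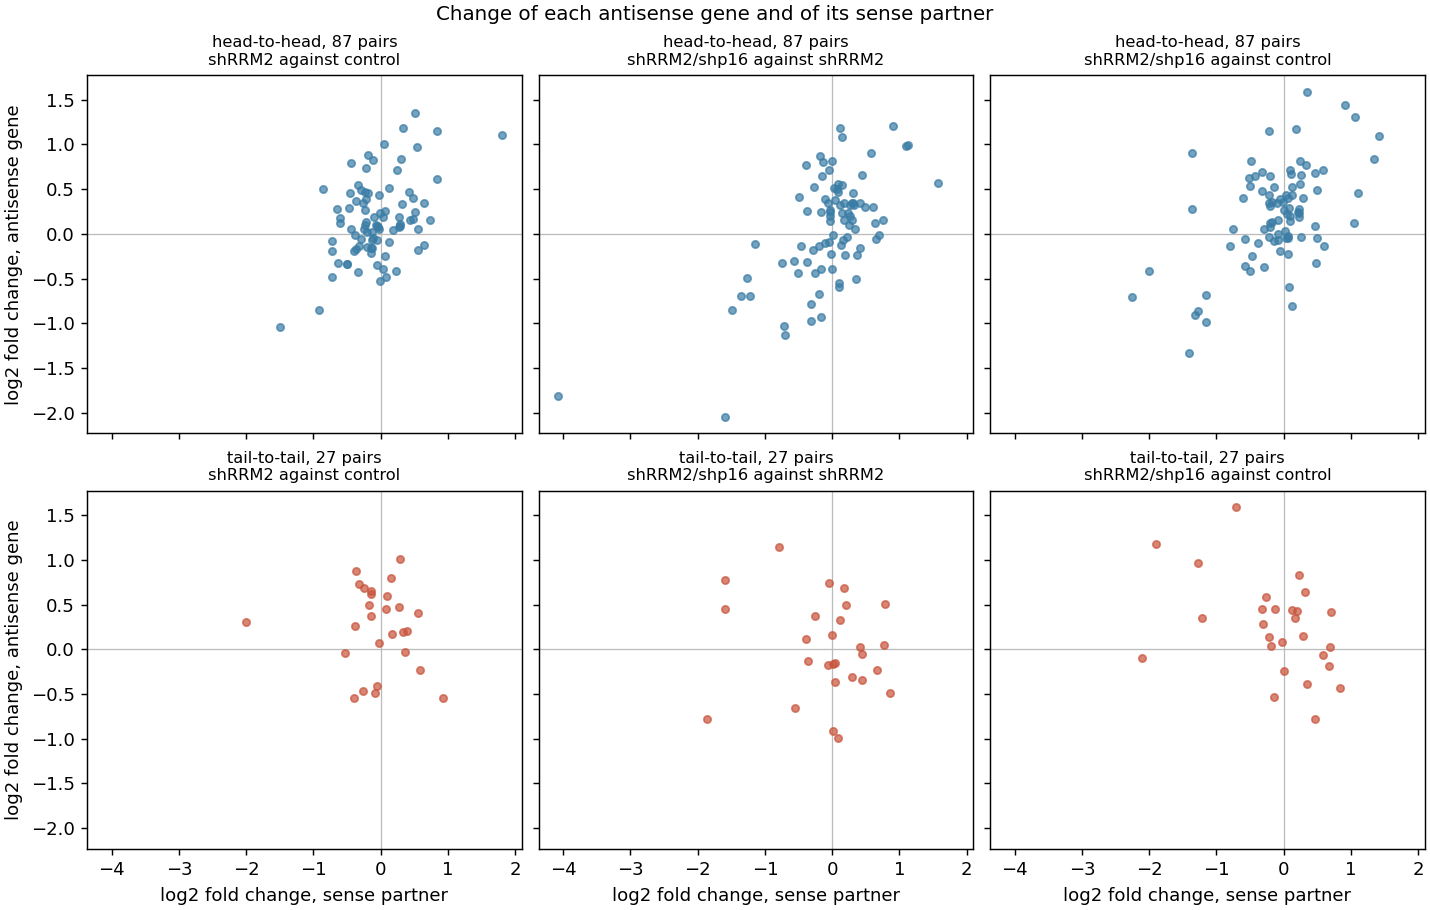
Log2 fold change of the antisense gene (vertical axis) against that of its sense partner (horizontal axis), 1 point per pair, for 87 head-to-head pairs (upper row) and 27 tail-to-tail pairs (lower row) in the 3 comparisons. The upper clouds run from lower left to upper right (correlations 0.46, 0.64 and 0.53), and the lower ones do not (correlations -0.11, -0.14 and -0.43).

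TMPO-AS1 fell together with TMPO, which was at 222 ± 3.21 CPM in control, 78.5 ± 1.08 in shRRM2 and 99.5 ± 5.14 in shRRM2/shp16 (SD, n = 3 each). H1FX went from 87.7 ± 2.43 to 46.7 ± 1.84 and back to 87.2 ± 3.37 CPM, and was not called against control (log2 fold change -0.01 ± 0.04, adjusted p = 0.890). GAS6 was at 400 ± 8.16, 504 ± 9.52 and 166 ± 3.79 CPM, in the same order of groups as GAS6-AS2. HHIP was at 26.2 ± 1.12, 91.2 ± 1.72 and 5.43 ± 0.922 CPM, a wider swing than that of HHIP-AS1 in the same direction. USP46, a deubiquitinase gene, was at 52.3 ± 2.93, 72.7 ± 3.57 and 109 ± 0.461 CPM, while USP46-AS1 was at 1.39 ± 0.188, 1.85 ± 0.317 and 3.46 ± 0.233. LOXL1 was at 132 ± 1.96, 140 ± 6.49 and 49.8 ± 1.28 CPM and so fell at the second step alone. NR2F2 fell at each step, from 251 ± 1.74 to 183 ± 4.87 to 113 ± 3.16 CPM, although NR2F2-AS1 was highest in shRRM2.

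The balance within a pair was tested as the log2 ratio of antisense to sense counts in each library, with limma and Benjamini-Hochberg adjustment over 2829 opposite-strand pairs. In shRRM2 against control the ratio changed in 69 of 137 member pairs (50.4%, all pairs 48.3%), upward in 54 (39.4%) and downward in 15 (10.9%). Over all pairs of a noncoding and a protein-coding gene, members included, 25.9% were called upward and 8.98% downward, and of the 965 such pairs without a member 32.6% were called in either direction. In shRRM2/shp16 against shRRM2 it changed in 70 pairs (51.1%, all pairs 48.0%), 37 upward and 33 downward (27.0% and 24.1%), beside 16.9% and 18.4% of noncoding to coding pairs and 33.1% either way without the members. In shRRM2/shp16 against control it changed in 72 pairs (52.6%, all pairs 50.3%), 54 upward and 18 downward (39.4% and 13.1%), beside 24.6% and 11.4%, and 33.7% either way without the members. The share of members called was thus near that of all pairs and above that of other noncoding to coding pairs, to which the floor of 20 counts was not applied. Upward calls also outnumbered downward ones against control in those other pairs, with 231 to 84 for shRRM2 and 217 to 108 for the double group.

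ACTA2-AS1 (chr10:88932390-88940820) runs tail-to-tail into ACTA2, the smooth muscle actin gene that marks myofibroblasts. There were 0.532, 0.788 and 0.642 antisense counts per 100 ACTA2 counts in control, 1.21, 1.37 and 1.38 in shRRM2, and 5.65, 5.25 and 5.45 in shRRM2/shp16. The groups were far apart, and the log2 ratio changed by 1.03 ± 0.13 (SE, adjusted p = 6.9e-09) and then by 2.05 ± 0.13 (adjusted p = 1.9e-17). Both genes contributed, with ACTA2 falling from 819 ± 14.5 to 657 ± 11.5 to 219 ± 4.25 CPM and ACTA2-AS1 rising from 5.34 ± 0.959 to 8.68 ± 0.759 to 11.9 ± 0.665. GAS6 has an antisense gene at each end. Its tail-to-tail partner GAS6-AS1 rose to 3.80 ± 0.507 CPM in the double group from 2.22 ± 0.530 in shRRM2, where GAS6-AS2 fell, and its ratio to GAS6 was 0.314 to 0.516 per 100 in shRRM2 and 2.00 to 2.49 in the double group (log2 change 2.38 ± 0.21, adjusted p = 9.0e-13). Over the 9 libraries GAS6-AS1 RPKM was 0.623% of GAS6 RPKM. That lies between the quartiles of 0.117% and 0.958% given above for reads on the strand across from a strong gene. The part of such reads in the GAS6-AS1 counts was not tested. ZFPM2-AS1 was at 1.79 to 2.45 per 100 ZFPM2 counts in shRRM2 and 7.01 to 8.81 in shRRM2/shp16 (adjusted p = 2.0e-11). SVIL-AS1 moved the other way against SVIL, the gene of the actin-binding protein supervillin, with 31.7 to 33.1 per 100 in shRRM2 and 11.5 to 13.7 in shRRM2/shp16 (log2 change -1.36 ± 0.07, adjusted p = 5.1e-20).

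In other pairs the larger change was that of the sense gene. OIP5 encodes a centromere loading factor of dividing cells and fell from 8.74 ± 0.368 CPM in control to 2.18 ± 0.409 in shRRM2, with 3.73 ± 0.731 in shRRM2/shp16. OIP5-AS1 counts per 100 OIP5 counts were 805 to 847 in control, 3498 to 4923 in shRRM2 and 2254 to 3107 in shRRM2/shp16 (log2 change 2.31 ± 0.17 with shRRM2, adjusted p = 3.4e-15). HHIP-AS1 stood at 5.31 to 7.01 per 100 in shRRM2 and 22.8 to 37.3 in shRRM2/shp16 although its own level fell, and HHIP fell further (log2 change 2.29 ± 0.20, adjusted p = 7.1e-13).

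**Figure D4:**
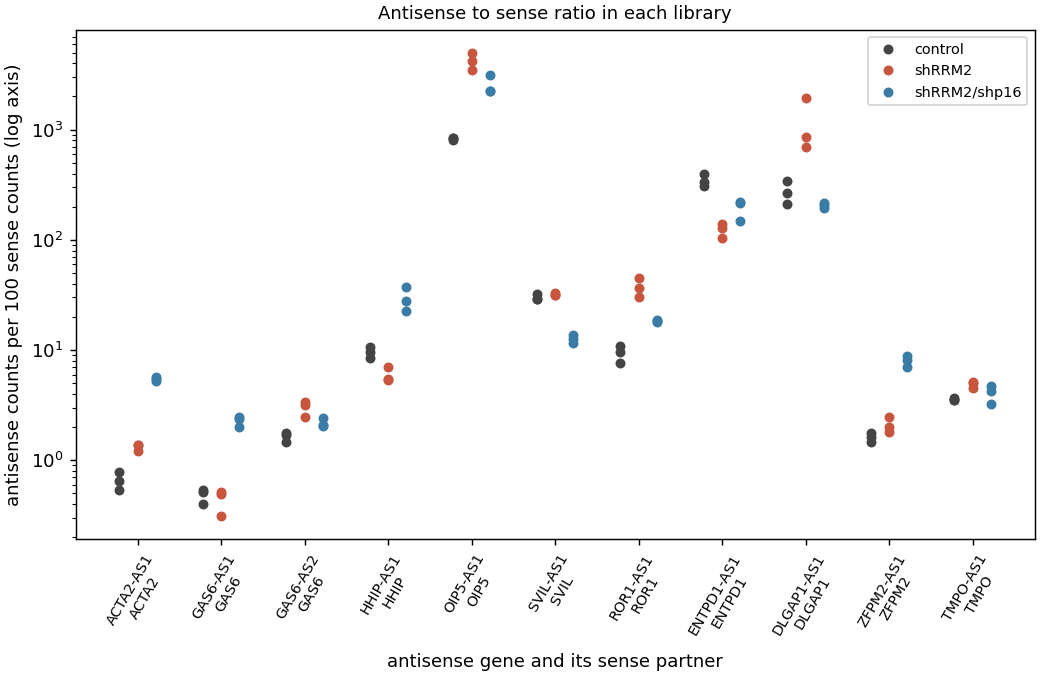
Antisense counts per 100 sense counts in each library on a log axis for 11 pairs, with control in grey, shRRM2 in red and shRRM2/shp16 in blue. ACTA2-AS1 lies at 0.532 to 0.788 in control and at 5.25 to 5.65 in shRRM2/shp16, and SVIL-AS1 at 31.7 to 33.1 in shRRM2 and 11.5 to 13.7 in shRRM2/shp16.

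Some members inside a sense gene moved against it with shRRM2. Where both genes of such a pair were called, they moved the same way in 2 of 7 pairs with shRRM2. They did so in 4 of 8 between the hairpin groups and in 5 of 6 for the double group against control. Of other pairs with 1 gene inside the other in this way, 60.3%, 57.5% and 55.2% did. ROR1-AS1 was at 10.9, 7.59 and 9.59 per 100 ROR1 counts in control, 36.8, 30.4 and 45.3 in shRRM2, and 18.9, 18.4 and 17.8 in shRRM2/shp16, as ROR1 went from 14.3 ± 1.71 to 7.77 ± 0.666 to 9.55 ± 0.113 CPM. The change with shRRM2 was 1.98 ± 0.23 in log2 ratio (adjusted p = 1.4e-09). VPS9D1-AS1 was at 17.1 to 23.2 per 100 in control and 6.30 to 10.9 in shRRM2 (log2 change -1.31 ± 0.21, adjusted p = 1.4e-06) and was at 17.4 to 26.6 in shRRM2/shp16. DLGAP1, a gene of a postsynaptic scaffold protein, was itself near the detection limit in shRRM2, at 0.230 to 0.692 CPM, and at 5.23 to 5.70 CPM in shRRM2/shp16, where it exceeded the 1.34 to 1.51 CPM of control. Between the hairpin groups it changed by 3.43 in log2 (adjusted p = 1.4e-16), beside 1.23 for DLGAP1-AS1 and 0.69 for DLGAP1-AS2, so that both ratios fell. ENTPD1-AS1, tail-to-tail with the ectonucleotidase gene ENTPD1, was at 307 to 400 per 100 in control and 104 to 138 in shRRM2 (log2 change -1.49 ± 0.21, adjusted p = 1.3e-07).

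The authors' deposited table gives its own fold changes for shRRM2/shp16 against shRRM2. Of the members, 34 (21.8%) have a q-value under 0.05 in the authors' deposited table, where 28.5% of the genes tested here do. All 34 were also called from the counts, 33 with the same sign, and a further 60 members were called from the counts and not in the authors' deposited table. The exception was GAS6-AS1, with a log2 fold change of -1.57 (q = 0.0237) in the authors' deposited table. From the counts GAS6-AS1 changed by 0.77 ± 0.19 in log2 (adjusted p = 5.0e-04), and was higher in every shRRM2/shp16 library than in every shRRM2 library. For ACTA2-AS1 the authors' deposited table gives -0.19 (q = 0.924). The counts give 0.45 ± 0.10 for ACTA2-AS1 (adjusted p = 2.2e-04). Of the 6 highest risers in this comparison, ZFPM2-AS1 and ZNF436-AS1 have 0.13 (q = 0.883) and 0.11 (q = 0.910) in the authors' deposited table. For these the counts give 1.14 (adjusted p = 8.3e-08) and 1.08 (adjusted p = 7.6e-06). VPS9D1-AS1 and DLGAP1-AS1 have 0.56 (q = 0.129) and 0.91 (q = 0.166) there, while H1FX-AS1 and SCAMP1-AS1 have q-values of 0.00688 and 4.4e-04. How the authors' fold changes were computed is not given in the sources used here beyond the tools' names, and the part of strand in these differences was not tested.

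RefSeq promoter windows were found for 128 of the 156 members. Their G and C content had a median of 66.2%, against 58% for all 27305 windows of the table, and they held a median of 26 CpG against 12. A GC box was in 61.7% of members' windows and 43.4% of all, a CCAAT box (CCAAT, either strand) in 32.8% and 35.4%, an E-box in 10.2% and 7.19%, and an AP-1 element in 5.47% and 7.98%. The E2F sequences TTTCCCGC and TTTGGCGC were in 2.34% and 2.27%. The window of 37.5% of members overlapped one on the opposite strand, against 14.2% of all windows, and for 32 members this was the window of the sense partner itself. RefSeq now names 22 of the members with the suffix -DT, for divergent transcript, GAS6-AS2 and USP46-AS1 among them.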

How the data were processed

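RNA of 9 IMR90 libraries was sequenced after DNase treatment and depletion of ribosomal RNA, with a stranded kit, per the labels' protocols. The authors deposited, per library, a file of whole-number counts of reads by Ensembl gene in the layout of HTSeq. The submitters' processing notes name TopHat2 2.0.9, Cufflinks 2.0.2, Cuffdiff and GRCh38, while the counter's version, annotation release and strand setting are not given in the sources used here. A further table deposited by the authors holds log2 RPKM by library and, for shRRM2/shp16 against shRRM2, a log2 fold change with p-value and q-value, per the file headers. One of its columns, for shRRM2 replicate c, differs from the matching counts, and the table was used only for symbols, for alternatives and for the authors' comparison.

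The test on counts was the quasi-likelihood test of edgeR 4.0.16 (R 4.3.3) after filterByExpr (16561 genes) and TMM scaling, all 9 libraries in 1 fit with 6 residual degrees of freedom, two-sided, with Benjamini-Hochberg adjustment over all tested genes at 0.05. CPM uses the TMM-scaled library size, and RPKM divides it by the exon length in GENCODE release 29, which also gave positions and may differ from the authors' annotation. Ratios of antisense to sense counts, with 0.5 added to each, were tested in limma 3.58.1 over 2829 opposite-strand pairs. Counts of amplified molecules without identifiers make counting error a lower limit.

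The members and lists were chosen with earlier results of these data known. Members named with values are, per comparison, the 6 highest and 6 lowest called without overlap and the 4 highest and 4 lowest called ratio changes, with the 5 of highest CPM, 3 on each side of the floor and 7 fixed ones. Members named in addition, in the lists of patterns, gene types and silent partners, were chosen after their values were seen. Values of 1 member that this rule picked are not reported here. Alternatives were RLE scaling, DESeq2 1.42.0, other filters, fewer libraries, a replicate block, RPKM values and leaving out each library. Both tests were tested on simulated data.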

Additional observations from a re-analysis of the deposited data

How the results depend on the processing

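Fewer or more genes shifted the counts by construction. With a floor of 50 counts, 42, 61 and 59 members were called in shRRM2 against control, shRRM2/shp16 against shRRM2 and shRRM2/shp16 against control, and over all filtered -AS genes 116, 142 and 140. DESeq2 called 48, 77 and 69 members. Leaving out each library in turn gave 63 to 68, 87 to 90 and 80 to 88 members, and 62 to 65, 58 to 68 and 62 to 69 pairs with a changed ratio. The replicate letters did not pair the libraries (correlation of same-letter deviations -0.02 to 0.05), and the fit with a replicate block called 71, 95 and 89 members. In limma on log2(RPKM + 0.1), which called 58, 87 and 91 members, the median of all genes moved to 0.03, 0.08 and 0.11, and 62 of the 87 rose between the hairpin groups, against 55 of 94 from the counts. Without the mismatched column of shRRM2 replicate c, an alternative chosen after seeing the data, that fit called 66, 86 and 97 members. Of the 144 log2 fold changes of named members, 99 were called, 79 of these under every alternative run for them, and 0 changed sign while called. Low counts limit precision, as the lowest members rest on 20 counts in a library.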
